A study of Mus musculus with 4 samples.

Results

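The 40 genes described here make the machinery with which a cell brings secreted and membrane proteins into the endoplasmic reticulum (ER), folds them and removes those that fail to fold. They were listed by name from the 32285 genes of the count tables and grouped by textbook role. No measured value served as a rule for the list, but earlier results of these data were known when it was made. The groups are Hsp70 and Hsp90 chaperones with their partners (8 genes), disulfide and proline folding enzymes (8), lectin chaperones (2), the translocon with the translocon-associated protein (TRAP) complex (7), signal peptidase (4), ER-associated degradation (8) and 3 others, the retrieval receptor Kdelr2, the calcium-binding Nucb1 and the poly(A) polymerase Tent5c. All 40 were detected.

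A plasma cell is a B cell that has turned to antibody secretion, and its ER is expanded to carry the load. Nascent chains enter through the Sec61 channel, lose their signal peptide to signal peptidase, are held by Hspa5 (BiP) and Hsp90b1 (GRP94), gain disulfide bonds from protein disulfide isomerases, and are checked by the lectins calreticulin and calnexin. Chains that do not fold are passed back to the cytosol for destruction, and many of the genes involved are known targets of the transcription factors Xbp1 and Atf6, the nuclear arms of the unfolded protein response.

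The B cells came from spleens of 6 CD45.1+ wild-type recipient mice, taken on day 8 after transfer of MD4 B cells and immunization with sheep red blood cells that carry hen egg lysozyme (HEL), the antigen of the transgenic MD4 receptor. HEL-binding CD95+ cells were stained with 1 hashtag antibody per mouse, pooled, and sorted into a CD45.2+ and a CD45.1+ fraction, each giving 1 mRNA library of 3′ tags. The CD45.2+ cells carried a B cell-restricted BCL2 transgene (BCL2.Tg) and were Dock8 wt/wt in 3 mice and Dock8 cpm/cpm in 3 mice, the second genotype being homozygous for an ENU-induced allele described as DOCK8-null. The CD45.1+ cells of all 6 mice were Dock8 wt/wt MD4 cells without the transgene. Mice were 8 to 12 weeks old. The recipients kept lymphocytes of their own. By the study's sorting method the HEL gate alone sets host CD45.1+ B cells apart, while a figure legend also lists the marker IgMa. Sort, BCL2 transgene and library cannot be told apart, nor can the Dock8 genotype of the CD45.2+ donors and their sex.

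Hashtags assigned 9692 cells to 1 mouse each, 6488 CD45.2+ and 3204 CD45.1+. Plasma cells, defined by 100 or more Jchain UMIs (unique molecular identifiers, counts of single mRNA molecules) per 10000 UMIs of the cell, numbered 1909, of which 1281 were CD45.2+ and 628 CD45.1+. The other B cells numbered 7665, and 118 cells with T cell receptor mRNA were kept apart. Each CD45.2+ Dock8 wt/wt mouse gave between 323 and 558 plasma cells and each CD45.1+ sample between 34 and 280, but the CD45.2+ Dock8 cpm/cpm mice gave only 1, 5 and 6. Total UMIs per mouse and sort ran from 342465 to 18036775. The libraries shared 38 barcodes, 6 of them among kept cells. Counts were summed per mouse and class, so that the mouse is the replicate. In the cycling comparisons, though, a mouse could enter once per sort. Levels are given as CPM, the UMIs of a gene set to a common total per sample. They were scaled in each comparison by edgeR's TMM factors, so that they are not comparable between comparisons. Without Jchain, which set the threshold, the 8 other fixed plasma cell markers summed to between 14602 and 15767 CPM in CD45.2+ Dock8 wt/wt plasma cells and to between 1581.7 and 1746.8 CPM in the other B cells of the same mice.

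The promoters of the 40 genes were searched for the letters that factors of the unfolded protein response are known to bind. RefSeq promoters (GRCm38.p6, 250 bases before to 50 after the start) were at hand for 33 of the 40. The ER stress response element (ERSE), CCAAT and CCACG with any 9 letters between them on either strand, stood in 9 of the 33 (27.3%) and in 0.137% of the 27025 genes with a promoter. The shorter ERSE-II, ATTGG and CCACG with any 1 letter between them, stood in 3 (9.09%, against 0.044% of all genes), and the unfolded protein response element (UPRE), TGACGTGG, in 2 (6.06%, against 0.714%). Together 14 of the 33 (42.4%) held at least 1 of these motifs, against 0.884% of all genes. The list was made by role and holds known targets of these factors, so the choice of genes itself favours a larger share. The stretches below are shown because these genes carry the later comparisons. Each is written 5′ to 3′ on the strand of the gene, with the fixed letters of the motif in capitals.
Hspa5, chr2:34772020-34772048, plus strand, ERSE: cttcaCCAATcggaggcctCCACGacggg
Hsp90b1, chr10:86705523-86705666, minus strand, ERSE found in 2 places: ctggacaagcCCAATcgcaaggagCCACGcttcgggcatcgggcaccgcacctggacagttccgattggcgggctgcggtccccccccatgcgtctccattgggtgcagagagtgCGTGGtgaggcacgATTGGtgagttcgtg
Creld2, chr15:88819510-88819548, plus strand, ERSE on the other strand: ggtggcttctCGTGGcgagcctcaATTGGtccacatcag
Calr, chr8:84847065-84847103, minus strand, ERSE on the other strand: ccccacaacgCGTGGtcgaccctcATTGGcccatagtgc
Canx, chr11:50325790-50325828, minus strand, ERSE: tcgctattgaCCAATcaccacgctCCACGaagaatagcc
Derl3, chr10:75893232-75893270, plus strand, ERSE on the other strand: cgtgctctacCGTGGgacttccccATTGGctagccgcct
Nucb1, chr7:45510429-45510459, minus strand, ERSE-II on the other strand: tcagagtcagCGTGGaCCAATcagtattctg
Txndc5, chr13:38528040-38528057, minus strand, UPRE: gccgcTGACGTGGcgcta
The Hspa5 and Txndc5 stretches lie before the RefSeq start and inside the longer gene models of GENCODE M21. A match describes letters in a window and was not measured as binding.

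The 40 genes were highest in plasma cells and in clusters that resemble them. Summed over all 40, plasma cells without cycling UMIs held 30470 ± 2260 CPM (SD, n = 3 mice) in the CD45.2+ Dock8 wt/wt cells and 38430 ± 2369 CPM (n = 6) in the CD45.1+ cells, here as plain CPM without TMM scaling. The cells under the Jchain threshold were clustered without the 40 genes and without immunoglobulin genes, and most clusters held between 4163 and 6736 CPM in CD45.2+ Dock8 wt/wt cells, an EarlyGC1-like cluster 4303 ± 38.9 CPM and a cluster like dark zone cells in S phase 5243 ± 114 CPM. The exceptions were 2 plasma-cell-like clusters of 258 cells in all, whose Jchain lay under the threshold. The larger one held 27570 ± 8408 CPM over 3 CD45.2+ mice. The T cells of the CD45.2+ library stood at 12620, 6420 and 5006 CPM in mice 1, 2 and 3 of the Dock8 wt/wt group, from 15, 35 and 17 cells. In the CD45.1+ library the T cells of 2 mice with enough cells held 2968 and 3572 CPM.

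**Figure D1:**
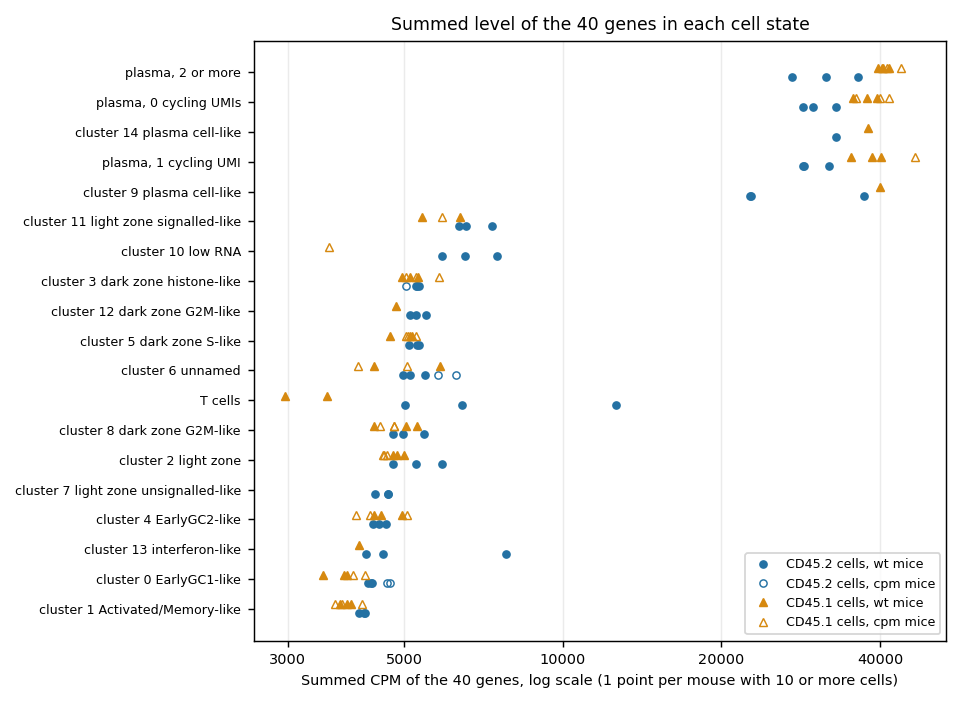
Summed level of the 40 genes (CPM, log axis) in each B cell state, with 1 point per mouse that has at least 10 cells of the state, circles for CD45.2+ and triangles for CD45.1+ cells, filled for Dock8 wt/wt and open for Dock8 cpm/cpm mice. Plasma cells and the plasma-cell-like clusters stand apart from every other B cell state, which lie between 4163 and 6736 CPM on average in CD45.2+ Dock8 wt/wt cells.

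Among the B cell states outside the plasma cells, single genes followed different orders. Pdia4, a protein disulfide isomerase, averaged 262.2 ± 23.8 CPM in CD45.2+ Dock8 wt/wt EarlyGC1-like cells (n = 3), 245.5 ± 11.1 CPM in Activated/Memory-like cells and 44.0 ± 17.0 CPM in cells like dark zone cells in G2 and M phase. In CD45.1+ cells the same 3 states held 151.7 ± 19.9 (n = 5), 206.6 ± 54.8 (n = 6) and 18.8 ± 7.94 CPM (n = 6) of Pdia4. The dark zone values lay below those of the other 2 states in both sorts, with no overlap between mice. Fkbp11, a proline isomerase, showed the same order, with 48.9 ± 5.12 CPM in EarlyGC1-like and 4.25 ± 1.91 CPM in the dark zone histone-like CD45.2+ cells, and 57.7 ± 20.7 and 2.98 ± 2.40 CPM in the CD45.1+ cells.

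Sdf2l1, a partner of the Hspa5 chaperone, ran the other way. It stood at 31.6 ± 8.30 CPM in EarlyGC1-like, 106.9 ± 2.62 CPM in dark zone histone-like and 194.2 ± 41.7 CPM in signalled light zone-like CD45.2+ cells, and at 22.4 ± 6.39, 110.9 ± 25.3 and 125.4 ± 52.6 CPM in the CD45.1+ cells. The mice of the EarlyGC1-like state lay below those of both other states in each sort. Hspa5 itself stood at 133.6 ± 9.91 CPM in Activated/Memory-like and at 602.4 ± 191.5 CPM in signalled light zone-like CD45.2+ cells. The CD45.1+ values of Hspa5 in these states were 142.1 ± 53.0 and 535.8 ± 26.6 CPM. The signalled light zone-like cluster held only 129 cells. A larger cluster of 1185 cells was named for both signalled and unsignalled light zone markers. In its CD45.2+ Dock8 wt/wt cells Sdf2l1 stood at 67.0, 86.3 and 102 CPM and Hspa5 at 207.8, 332.6 and 443.2 CPM. In each sort its mice lay below those of the smaller cluster for both genes. These levels are descriptions, since the clusters were made from the same cells.

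Plasma cells were compared with the other B cells of the same mice first in the CD45.2+ Dock8 wt/wt cells. All 40 genes were called higher in plasma cells, where 27.9% of the 10622 genes tested were (and 27.9% lower), and in each of the 40 every plasma value lay above every other B cell value, as in 30.1% of all genes (n = 3 mice, edgeR quasi-likelihood test with mouse as block, Benjamini-Hochberg adjusted p under 0.05). Their median log2 change was 3.12, against -0.02 over all genes tested. Without TMM scaling it was 2.38, against -0.77 over all genes, and all 40 stayed called, where 1198 of the 10622 genes tested were called higher. In the CD45.1+ cells of 6 mice, all 40 were again called higher, without overlap between the classes, where 29.3% of the 8098 genes tested were called higher, 32% lower and 18.7% were higher without overlap, with a median of 3.45 against -0.05. Plasma cells spent a median of 40.5% (CD45.2+) and 39.5% (CD45.1+) of their UMIs on immunoglobulin genes. Leaving the plasma-cell-like clusters out of the other B cells raised the medians to 3.44 and 4.004.

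Chaperones and their partners rose by a median of 3.61 on the log2 scale in the CD45.2+ cells. Hspa5 (chr2:34771970-34777547, plus strand), the ER Hsp70, stood at 198.8, 212.8 and 244.1 CPM in the other B cells of the 3 mice and at 1820, 1742 and 2052 CPM in their plasma cells, a log2 change of 3.10 ± 0.08 (SE; adjusted p = 2.76e-16). The 3 plasma values were far above the other B cell values. Hsp90b1, the ER Hsp90, went from 346.3, 382.7 and 498.7 CPM to 4502, 5072 and 6558 CPM (3.72 ± 0.09, adjusted p = 3.67e-17). The Hsp70 co-chaperone Dnajb9 changed most in this group, from 21.04, 22.0 and 21.3 CPM to 351.3, 356.4 and 388.9 CPM (4.09 ± 0.09, adjusted p = 2.14e-17). Creld2, a secreted ER stress protein, rose by 4.01 and Sdf2l1 by 3.77. The co-chaperone Dnajb11 had the smallest change of the 8, at 2.71.

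The same genes rose in CD45.1+ plasma cells. Hspa5 ranged from 203.2 through a median of 276.1 to 291.3 CPM in the other B cells of 6 mice and from 1626 through 2485 to 2789 CPM in their plasma cells (3.18 ± 0.08, adjusted p = 5.67e-24). Hsp90b1 went from 301.6, 538.7 and 819.1 CPM (lowest, median and highest) to 8530, 9664 and 11930 CPM (4.26 ± 0.12, adjusted p = 2.37e-22). No mouse had a plasma value within the range of the other B cells for either gene.

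Folding enzymes held the largest single change. Selenom (chr11:3514684-3517351, plus strand), an ER selenoprotein with a thioredoxin-like fold, stood at 4.35, 4.39 and 6.32 CPM in CD45.2+ other B cells and at 110.6, 115.0 and 182.3 CPM in plasma cells, a log2 change of 4.75 ± 0.10 (adjusted p = 1.98e-17). In CD45.1+ cells it went from 2.21, 4.28 and 16.2 CPM (lowest, median and highest) to 113.5, 204.7 and 260.2 CPM (4.91 ± 0.17, adjusted p = 1.64e-20). In both sorts all plasma values lay above all other values. The disulfide isomerase Txndc5 rose by 4.09 and 4.54 (CD45.2+ and CD45.1+) and Fkbp11 by 3.98 and 4.74. Pdia3, which works with the lectin chaperones, had the smallest change of the group, 2.09 and 2.37.

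The lectin chaperones differed from each other. Calr (calreticulin), the soluble one, rose from 200.6, 210.3 and 229.4 CPM to 1104, 1092 and 1269 CPM in the CD45.2+ cells (2.44 ± 0.08, adjusted p = 4.75e-15). Canx (calnexin), its membrane-bound relative, went from 104.4, 103.6 and 117.0 CPM to 219.9, 200.1 and 207.6 CPM (0.95 ± 0.08, adjusted p = 5.94e-09). It was the smallest change of the 40 in this sort and also in the CD45.1+ cells (1.13 ± 0.09, adjusted p = 3.73e-12), although its promoter holds an ERSE as shown above. The 14 genes with a promoter match had median changes of 3.21 (CD45.2+) and 3.25 (CD45.1+), and the 19 without had medians of 3.49 and 3.81.

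Of the entry machinery, the TRAP subunit Ssr4 (chrX:73787028-73790830, plus strand) changed most. It stood at 242.0, 235.9 and 260.2 CPM in CD45.2+ other B cells and at 3467, 3487 and 3442 CPM in plasma cells (3.82 ± 0.09, adjusted p = 3.65e-17). The plasma values of the 3 mice were close to one another. Sec61g, a small channel subunit, changed least of the 7, from 466.2, 464.3 and 525.1 CPM to 1412, 1537 and 1912 CPM (1.73 ± 0.08). The TRAP subunits Ssr2 and Ssr3 rose by 2.90 and 2.68. The 4 signal peptidase genes moved by similar amounts, 2.96 (Spcs2), 3.10 (Sec11c), 3.14 (Spcs1) and 3.23 (Spcs3).

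In ER-associated degradation the spread was wide. Derl3, a membrane factor of the retrotranslocation complex known from secretory cells, stood at 37.5, 47.7 and 38.0 CPM in CD45.2+ other B cells and at 641.7, 686.4 and 746.4 CPM in plasma cells (4.08 ± 0.10, adjusted p = 5.76e-17). Its relative Derl2 went from 44.2, 40.4 and 43.5 CPM to 113.8, 110.6 and 122.0 CPM (1.44 ± 0.08, adjusted p = 1.20e-11). Both were separated in every mouse, Derl3 by the wider margin. Edem1, a mannosidase-like lectin that marks misfolded glycoproteins, rose by 3.72 and its relative Edem2 by 3.56. Tent5c, which lengthens the poly(A) tails of mRNAs for secreted proteins, rose by 4.19 in CD45.2+ and 4.73 in CD45.1+ cells, Nucb1 by 3.32 and 3.31, and Kdelr2, which returns escaped ER proteins from the Golgi, by 2.36 and 2.84.

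**Figure D2:**
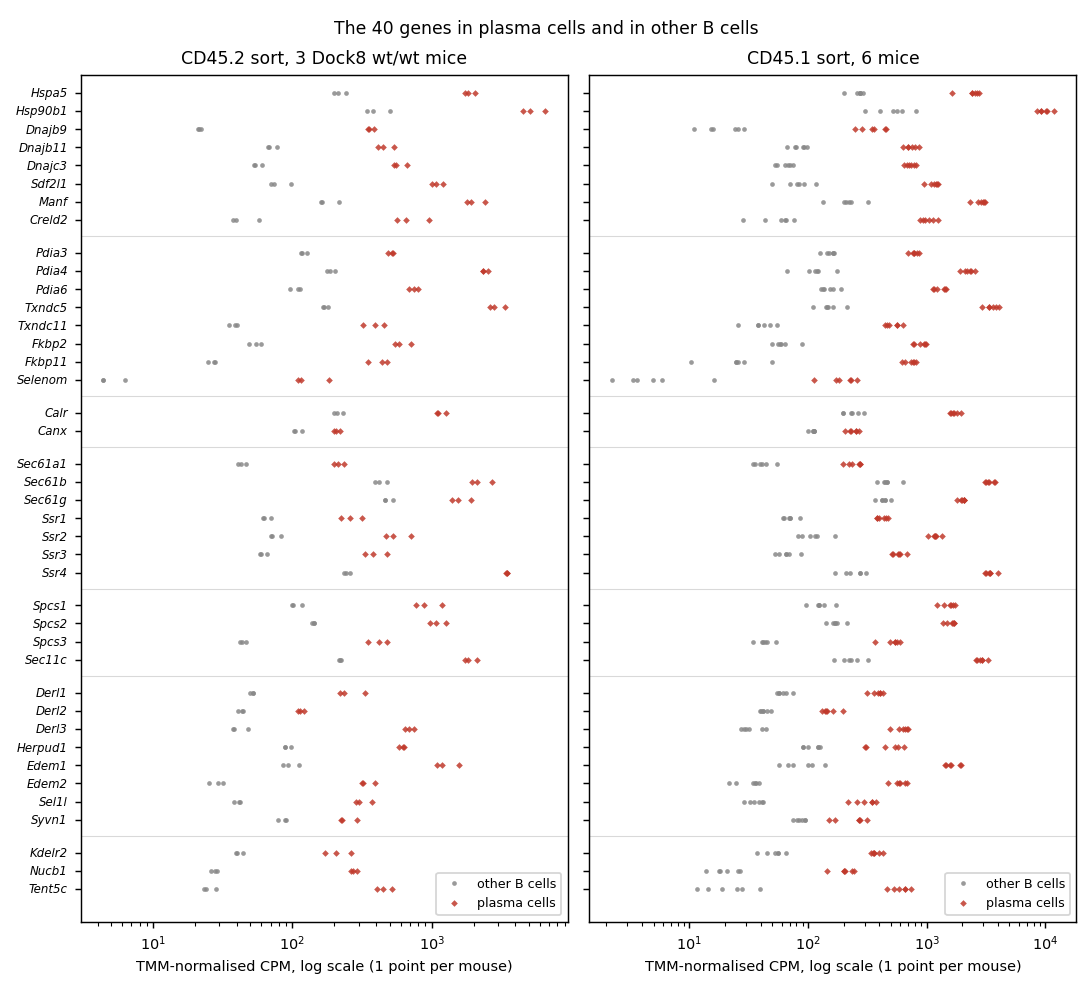
Level of each of the 40 genes (TMM-scaled CPM, log axis) in other B cells (grey) and plasma cells (red), with 1 point per mouse, for CD45.2+ Dock8 wt/wt cells of 3 mice (left) and CD45.1+ cells of 6 mice (right), ordered by role. In all 40 genes and both sorts the red points lie to the right of the grey ones, with Selenom among the widest gaps and Canx the narrowest.

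The next comparison asked how the 40 genes differ between cycling and resting plasma cells. Plasma cells with 2 or more UMIs of the proliferation genes Mki67 and Top2a were compared with those that had 0, within each of 9 pairs of mouse and sort (6 CD45.1+ and 3 CD45.2+), and 502 plasma cells with 1 such UMI were left out. The 9 pairs came from 6 mice, since the 3 Dock8 wt/wt mice gave a pair in each sort. The test counted these pairs as separate. Of the 40 genes, 24 were called lower in the cycling cells and 4 higher, where 14.3% and 14.5% of the 3625 genes tested were. The median log2 change was -0.23 for the 40 and -0.02 for all genes tested. These calls rested on the scaling. Without TMM the median of all genes was 0.25 and of the 40 genes 0.06, and 6 were called lower and 15 higher. In that fit 121 of all 3625 genes tested were called lower and 1526 higher. The 6 called lower under both scalings were Nucb1, Ssr4, Derl3, Txndc5, Dnajc3 and Pdia4, and the 4 called higher under both were Ssr1, Ssr2, Sec61g and Kdelr2.

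Nucb1 (chr7:45490458-45510406, minus strand), a calcium-binding protein of the Golgi, changed most. It ranged from 136.4 through a median of 278.6 to 295.3 CPM without cycling UMIs and from 52.5 through 141.2 to 179.2 CPM with 2 or more, and was lower in 9 of 9 pairs (-0.85 ± 0.09, adjusted p = 7.07e-08). Ssr4 went from 3073, 3371 and 3690 CPM (lowest, median and highest) to 1588, 2135 and 2426 CPM (-0.71 ± 0.06, adjusted p = 1.38e-09). Ssr4 was the only one of the 40 whose ranges did not overlap, as 0.469% of all genes tested were lower without overlap. Derl3 went from 457.4, 633.1 and 816.9 CPM to 291.8, 394.9 and 476.3 CPM, again in 9 of 9 pairs (-0.68, adjusted p = 2.00e-08). Txndc5 went from 2381, 3282 and 3519 CPM to 1700, 2112 and 2745 CPM (-0.56, adjusted p = 2.86e-07). For both genes the ranges touched, while every pair moved the same way.

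The co-chaperone Dnajc3 fell from a median of 649.3 CPM (range 493.1 to 691.6) to 458.9 CPM (351.4 to 564.3), lower in 9 of 9 pairs (-0.46, adjusted p = 3.96e-06), and Pdia4 from 2103 CPM (1845 to 2411) to 1534 CPM (1191 to 1855), also in 9 of 9 (-0.43, adjusted p = 3.07e-06). In all, 13 of the 40 genes were lower in every pair and 0 were higher in every pair, where 6.51% and 8.99% of all genes tested were. Without TMM the changes of the 6 genes were -0.57 (Nucb1), -0.41 (Ssr4), -0.39 (Derl3), -0.26 (Txndc5), -0.16 (Dnajc3) and -0.14 (Pdia4). With TMM, the antibody chains themselves moved in the same direction, Ighm by -0.78, Igkc by -0.63 and Jchain, which set the threshold for plasma cells, by -0.81. These values are not on the scale of the 6 changes without TMM.

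The 4 genes that were higher are part of the entry and retrieval steps. Ssr1, a TRAP subunit, went from 164.0, 286.7 and 353.0 CPM (lowest, median and highest) to 204.4, 294.5 and 391.6 CPM, higher in 7 of 9 pairs (0.28, adjusted p = 0.00724). Ssr2 went from 368.1, 810.4 and 932.8 CPM to 389.7, 915.1 and 1191 CPM, higher in 8 of 9 pairs (0.24, adjusted p = 0.0108). Ranges overlapped widely for both. Kdelr2 (0.25, adjusted p = 0.0125) was higher in 7 of 9 pairs and Sec61g (0.19, adjusted p = 0.0252) in 8 of 9. So Ssr4 and the other TRAP genes did not move together: Ssr1 and Ssr2 were higher, Ssr4 was lower and Ssr3 stood at -0.01 (adjusted p = 0.960).

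By role, 7 of 8 degradation genes, 7 of 8 folding enzymes, 3 of 4 signal peptidase genes and 4 of 8 chaperones were called lower, and neither lectin chaperone was called. With TMM, the signal peptidase genes Sec11c, Spcs3 and Spcs2 changed by -0.27, -0.22 and -0.17, Dnajb9 by -0.46, the thioredoxin-domain protein Txndc11 by -0.34 and Tent5c by -0.32, and without TMM none of these 6 remained called lower. Among the degradation genes, Sel1l, the scaffold of the ubiquitin ligase complex, changed by -0.46 and Edem1 by -0.44, while Derl2 (0.02, adjusted p = 0.882) missed the threshold. Without TMM only Derl3 of the 8 remained called lower. The 4 signal peptidase genes stood at 0.03 (Sec11c), 0.07 (Spcs3), 0.13 (Spcs2) and 0.30 (Spcs1) without TMM, all with the opposite sign. Hspa5 went from 1501, 1852 and 2480 CPM to 1214, 1511 and 1985 CPM (-0.28, adjusted p = 0.00338), and stood at 0.02 without TMM. Hsp90b1 ranged from 3931 to 9785 CPM and from 3197 to 8186 CPM, a change of 0.03 ± 0.07 (adjusted p = 0.809). Calr (-0.04), Canx (0.06), Pdia6 (-0.00) and Spcs1 (-0.00) also missed the threshold. Cycling plasma cells held more UMIs, with medians of 10500 against 7222 in CD45.2+ and 12150 against 8920 in CD45.1+ cells, and a lower immunoglobulin share, 35.9% against 43.3% and 33.1% against 43.9%. In another setting only the count of Mki67 and Top2a was redrawn at 2000 UMIs a cell, to set the cycling class. Cells under 2000 UMIs were left out, and the 40 genes kept their full counts, so depth was evened for the class only. With the cycling class set so, 17 of the 40 were called lower and 4 higher. Of the 3706 genes tested, 541 and 626 were. With immunoglobulin genes and Jchain left out of the counts it was 24 and 4, where 480 and 548 of the 3590 genes tested were.

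Each library alone gave the same direction for the leading genes. In the CD45.1+ and CD45.2+ libraries, Nucb1 changed by -0.96 and -0.74, Ssr4 by -0.80 and -0.54, Derl3 by -0.65 and -0.70 and Txndc5 by -0.68 and -0.34. With CD45.1+ cells only, 19 of the 40 were called lower and 0 higher, where 277 and 280 of the 2478 genes tested were. With CD45.2+ cells only it was 14 and 2, where 359 and 556 of the 7176 genes tested were. Leaving out the 6% of cells with most UMIs left 10 lower and 0 higher, where 179 and 180 of the 3672 genes tested were. Of the 4 higher genes, all but Ssr2 lost their call when mouse 3 of the Dock8 wt/wt group was left out.

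**Figure D3:**
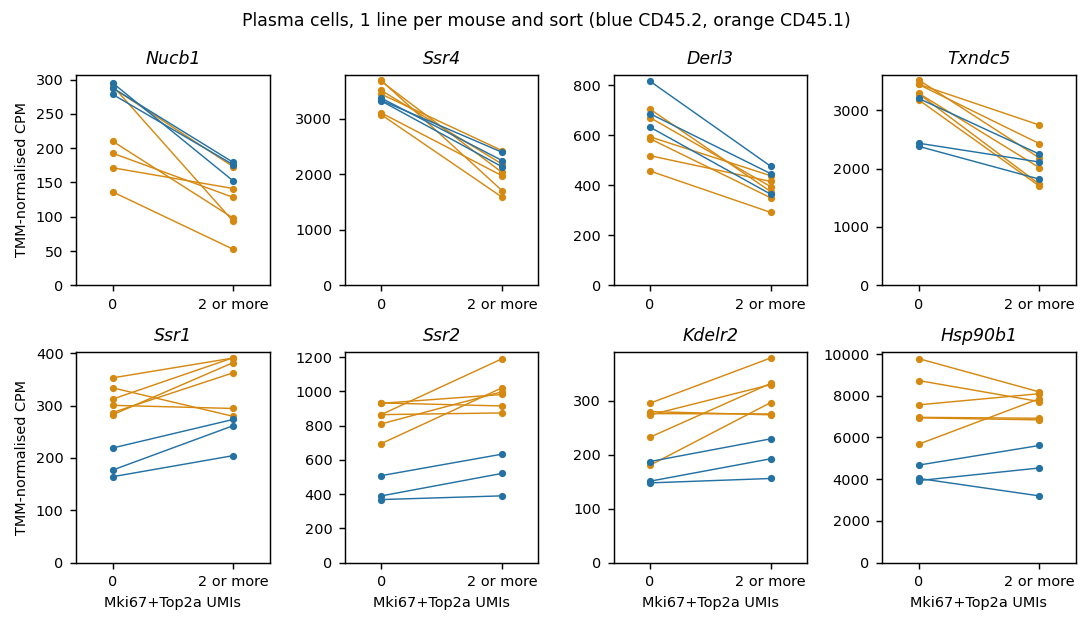
Levels (TMM-scaled CPM, axes from 0) of 8 genes in plasma cells with 0 and with 2 or more Mki67 and Top2a UMIs, with 1 line per mouse and sort (blue for CD45.2+, orange for CD45.1+, 9 lines in each panel). All 9 lines fall for Nucb1, Ssr4, Derl3 and Txndc5, most rise for Ssr1, Ssr2 and Kdelr2, and those of Hsp90b1 go both ways.

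The same comparison in the other B cells gave a different picture. Each of the 6 mice gave 1 pair per sort, and the test counted both pairs of a mouse as separate. Over 12 pairs of mouse and sort, 22 of the 39 genes tested were called higher in cells with 2 or more cycling UMIs and 4 lower, where 33.4% and 37.4% of the 7037 genes tested were (Selenom was too low to be tested). Without TMM the split was 30 and 2, where 3123 of the 7037 genes tested were called higher and 1806 lower. Fkbp2, a proline isomerase, went from 37.7, 51.6 and 96.5 CPM (lowest, median and highest) to 25.6, 92.7 and 187.0 CPM, higher in 11 of 12 pairs (0.87 ± 0.10, adjusted p = 1.28e-09). Pdia6, an isomerase that works with Hspa5, went from 70.0, 125.9 and 181.4 CPM to 134.4, 210.2 and 387.7 CPM and was higher in 12 of 12 (0.72, adjusted p = 1.68e-09). Ranges overlapped in both. Creld2 (0.98), Sdf2l1 (0.87), Kdelr2 (0.81), Manf (0.69) and Ssr2 (0.68) were higher in 10 or 11 of 12 pairs. Hsp90b1 (0.52), Hspa5 (0.39), Sec61b (0.37) and Calr (0.22) were called higher too, and Derl3 (0.15, adjusted p = 0.325) was not called. Pdia4 was lower in 10 of 12 pairs, from a median of 208.7 to 150.1 CPM (-0.63, adjusted p = 8.63e-05).

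Many of these calls moved with the cells of the plasma-cell-like clusters, which sit among the other B cells under the Jchain threshold and of whose smaller one 96.6% of cells had 2 or more cycling UMIs. Without them, 14 of the 39 genes were called higher and 8 lower, with a median change of -0.00, where 33.7% and 37.6% of all genes tested were called, so that the share called higher lay near that of all genes. Sdf2l1 (0.74) and Fkbp2 (0.74) stayed higher, while Hsp90b1 went from 0.52 to -0.12 and missed the threshold. The genes then called lower included Fkbp11 (-1.99), Pdia4 (-1.53), Nucb1 (-0.69), Ssr4 (-0.58) and Txndc5 (-0.53). These 5 were also called lower in cycling plasma cells with TMM, Fkbp11 by -0.25 (adjusted p = 0.0327), and all but Fkbp11 without TMM too. The others of the 8 were Dnajb9, Edem2 and Ssr3. In cycling plasma cells Dnajb9 and Edem2 were called lower with TMM but not without it. Ssr3 (-0.01 with TMM) was called lower there under neither scaling. Both comparisons used separate cells of the same mice. With the cycling class set at 2000 UMIs a cell, 12 were called higher and 9 lower, where 32.7% and 36.1% of all genes were.

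The difference between both effects was tested as an interaction, plasma cells minus other B cells. It was called lower for 27 of the 40 genes and higher for 0, where 10.2% and 7.54% of the 7648 genes tested were, with a median of -0.58. The largest differences were those of Fkbp2 (-1.22), Creld2 (-1.20), Sdf2l1 (-1.14) and Derl3 (-0.96). The count depended on which cells entered. It was 12 lower and 2 higher without the plasma-cell-like clusters, where 9.21% and 7.53% of all genes were. With the cycling class set at 2000 UMIs a cell it was 2 lower (Fkbp2 and Txndc11) and 0 higher, where 2.87% and 5.73% were. Without mouse 3 of the Dock8 wt/wt group 15 were called lower.

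**Figure D4:**
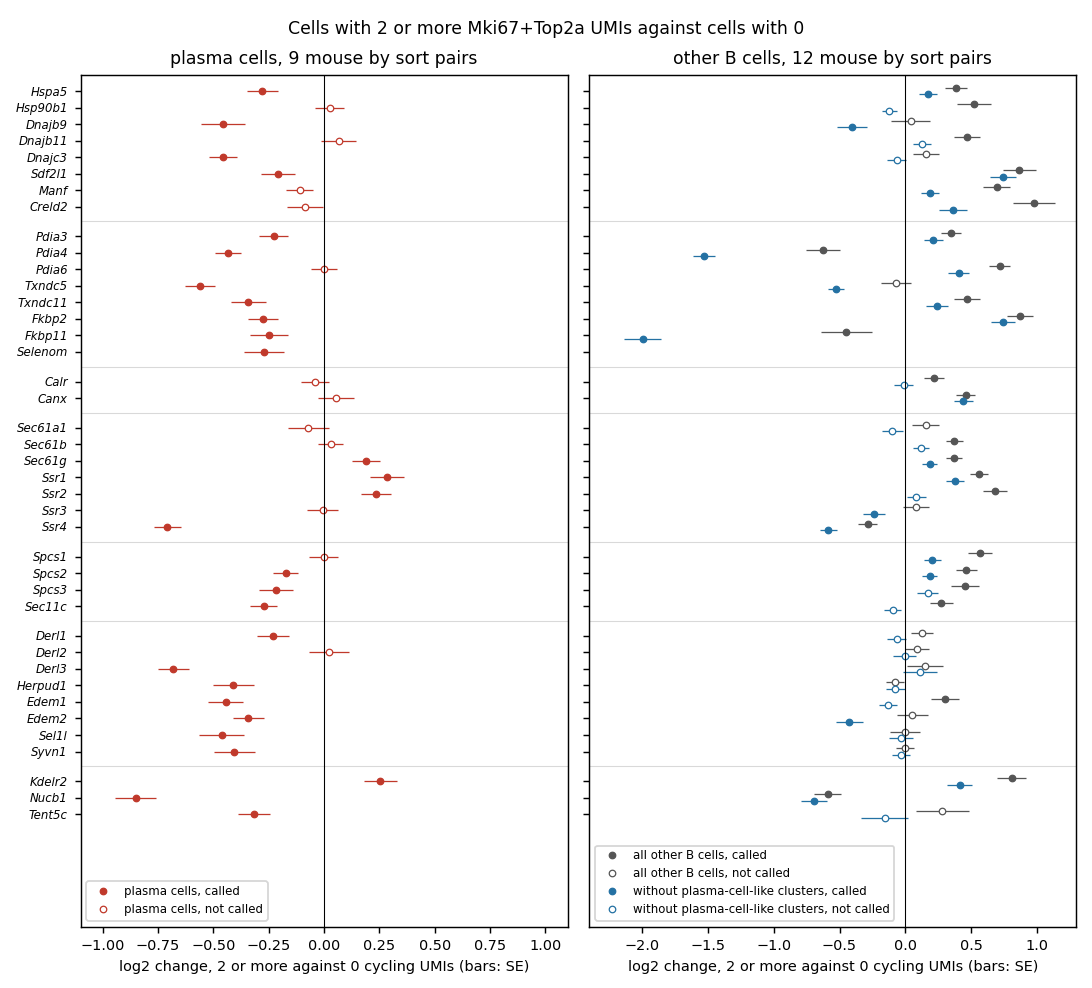
Log2 change of each of the 40 genes between cells with 2 or more and with 0 Mki67 and Top2a UMIs, in plasma cells over 9 pairs (left, red, filled where called) and in other B cells over 12 pairs (right, grey for all cells, blue without the plasma-cell-like clusters), with bars for the SE. In plasma cells Nucb1, Ssr4 and Derl3 lie farthest to the left, and in other B cells Fkbp11 and Pdia4 move far to the left once the plasma-cell-like clusters are left out.

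CD45.2+ and CD45.1+ plasma cells were compared within the 3 Dock8 wt/wt mice, whose cells of both sorts have intact Dock8. Of the 40 genes, 30 were called lower in the CD45.2+ BCL2.Tg cells and 1 higher, where 10.8% and 11.2% of the 8465 genes tested were. The median log2 change was -0.52, against 0.02 over all genes, and 35 of the 40 were lower in all 3 mice, as were 23.4% of all genes tested. Without TMM 27 were lower and 1 higher, where 484 and 1481 of the 8465 genes tested were. The median of all genes was then 0.18. The CD45.2+ plasma cells of mice 1, 2 and 3 also held 8198, 8341 and 4208 CPM summed over 7 B cell identity genes, against 5698, 6338 and 2520.5 CPM in the CD45.1+ plasma cells, more in each mouse but with overlap between the sorts, and with Ms4a1 higher by 2.16 and Pax5 by 4.60 on the log2 scale. The T cells of the CD45.2+ library, pooled over mice, held 6335 CPM of these 7 genes, with none at 0, and those of the CD45.1+ library 750.8 CPM, with 2 of 7 at 0.

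Because these values move with the sort, the comparison was repeated in plasma cells with under 2 UMIs per 10000 of Ms4a1, Pax5 and Cd22 together, which were 44.0% of CD45.2+ and 90.9% of CD45.1+ plasma cells over all mice. There 23 of the 40 were called lower and 1 higher, with a median of -0.30, where 6.86% and 7.2% of the 6739 genes tested were. In the plasma cells with no UMI of these 3 genes, 18.2% of CD45.2+ and 65.9% of CD45.1+ plasma cells, 15 of the 40 were lower, all of them among the 30, and Pdia4, Derl3 and Nucb1 were higher, with a median of -0.23, where 5.69% of the 4465 genes tested were lower and 5.49% higher. In cells with 0 cycling UMIs 25 were lower and 0 higher (7.28% and 6.97% of all genes), and in those with 2 or more 24 and 0 (5.14% and 6.44%).

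Ssr2 changed most between the sorts. It stood at 781.3, 882.1 and 900.1 CPM in the CD45.1+ and at 348.7, 394.3 and 511.4 CPM in the CD45.2+ plasma cells of mice 1, 2 and 3 (-1.04 ± 0.09, adjusted p = 7.83e-12), without overlap, and changed by -0.80 in the cells low in B cell mRNA and by -0.84 in those with none of the 3 genes. Edem2 went from 428.5, 486.5 and 441.8 CPM to 235.2, 237.4 and 282.5 CPM (-0.84, and -0.63 in the cells low in B cell mRNA). Hsp90b1 went from 6526, 6878 and 6852 CPM to 3359, 3759 and 4739 CPM (-0.79, adjusted p = 3.38e-10, and -0.52). In each of these genes all 3 CD45.2+ values lay under all 3 CD45.1+ values. Kdelr2 changed by -0.80 and Spcs1 by -0.80, again without overlap. The folding enzymes Selenom, Fkbp11 and Fkbp2 changed by -0.73, -0.72 and -0.69, Calr by -0.52 and the channel subunit Sec61b by -0.62, and of these Selenom overlapped between the sorts.

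Hspa5 went from 1855, 1971 and 2081 CPM to 1358, 1291 and 1483 CPM (-0.52). It changed by -0.30 in the cells low in B cell mRNA (adjusted p = 0.0094) and by -0.10 in those with no UMI of the 3 B cell genes, where it missed the threshold (adjusted p = 0.702). Derl3 stood at 443.6, 515.2 and 523.8 CPM in CD45.1+ and at 478.7, 508.7 and 539.4 CPM in CD45.2+ cells (0.04, adjusted p = 0.778), and Pdia4 (-0.02), Ssr4 (-0.08) and Herpud1 (0.04) were not called either. The values of Derl3 overlapped, and in the cells with no UMI of the 3 B cell genes it was higher by 0.46 (adjusted p = 0.0151) and Pdia4 by 0.32 (adjusted p = 0.0262). Nucb1 was the one gene higher in CD45.2+ cells, from 186.5, 174.2 and 151.8 CPM to 218.0, 203.0 and 190.2 CPM (0.26, adjusted p = 0.0357), and 0.50 in the cells low in B cell mRNA. By role, 7 of 8 folding enzymes, 6 of 7 translocon and TRAP genes, 4 of 4 signal peptidase genes, 6 of 8 chaperones and 4 of 8 degradation genes were lower.

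**Figure D5:**
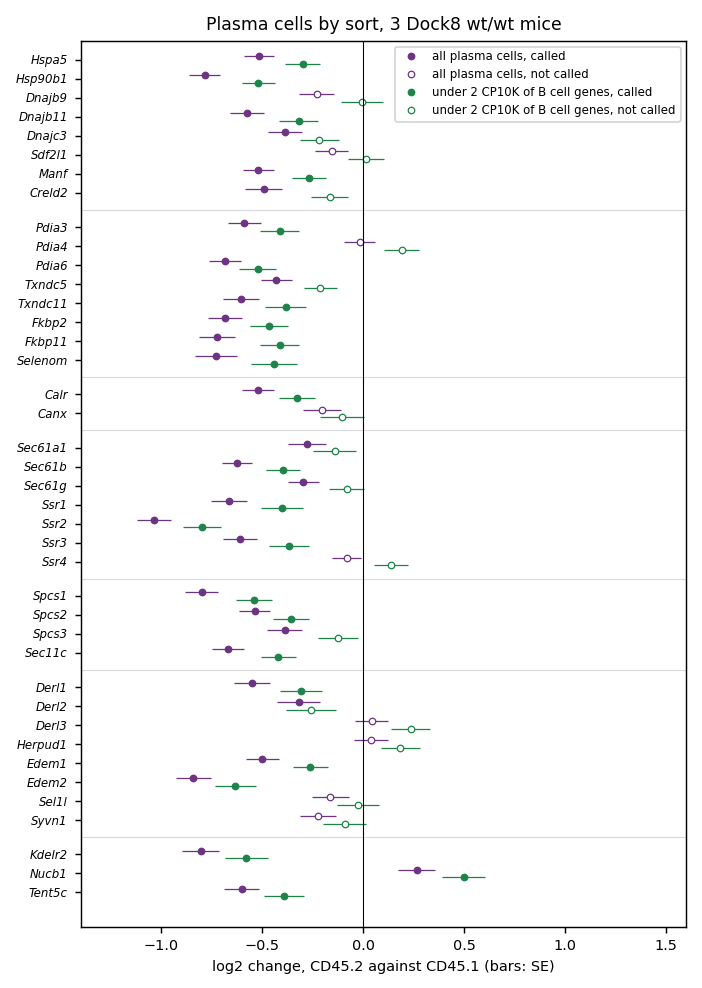
Log2 difference of each of the 40 genes between CD45.2+ and CD45.1+ plasma cells of the 3 Dock8 wt/wt mice, for all plasma cells (purple) and for those with under 2 UMIs per 10000 of 3 B cell genes (green), with bars for the SE. Most points lie below 0, with Ssr2 at the low end and Nucb1 above 0, and the green points lie nearer to 0 for many genes.

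In the other B cells of the same mice, 17 of the 40 were called lower in the CD45.2+ cells and 1 higher, where 2.54% and 3.07% of the 10566 genes tested were. Ssr2 was again lowest, from 150.6, 156.8 and 224.7 CPM to 92.7, 90.6 and 107.5 CPM (-0.86), without overlap. Pdia6 (-0.64), Kdelr2 (-0.54), Spcs1 (-0.47), Hspa5 (-0.40) and Calr (-0.28) were lower without overlap, and Hsp90b1 (-0.53), Manf (-0.49), Creld2 (-0.45) and Sec61b (-0.30) with overlap, while Derl3 stood at 0.20 (adjusted p = 0.283). Pdia4 was the higher one, from 158.3, 150.8 and 232.9 CPM to 241.9, 228.6 and 260.0 CPM (0.44, adjusted p = 0.0148). Without the plasma-cell-like clusters 0 were called lower and 1, Pdia4, higher, where 149 and 189 of the 10466 genes tested were. The median was 0.01, and 0 of the 17 genes remained called. In B cells with 0 cycling UMIs, 3 were lower and 3 higher, where 408 and 377 of the 9009 genes tested were.

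Dock8 genotype was compared in the CD45.2+ other B cells, of which the Dock8 cpm/cpm mice gave 56, 38 and 89 and the Dock8 wt/wt mice 1669, 2014 and 1267. Dock8 mRNA stood at 99.1, 106.1 and 92.5 CPM in the 3 cpm/cpm and at 116.8, 119.5 and 108.9 CPM in the 3 wt/wt mice (-0.23, adjusted p = 0.696), and since an ENU-induced mutation need not lower the mRNA this count does not check the label. None of the 40 genes was called (0 of 40 in either direction), where 0.223% of the 10301 genes tested were called lower and 0.0874% higher. At an unadjusted p under 0.05, 19 of the 40 and 847 of all genes passed, and DESeq2 called 4 of the 40 lower. In 21 of the 40 the cpm/cpm values lay below all wt/wt values, and in 2 above, as they did in 11.5% and 6.88% of all genes tested.

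Hspa5 stood at 302.5, 167.3 and 252.8 CPM in the cpm/cpm and at 267.6, 288.1 and 330.3 CPM in the wt/wt mice (-0.27, adjusted p = 0.633), with overlap. Hsp90b1 stood at 474.6, 344.2 and 420.8 CPM against 466.3, 518.1 and 674.9 CPM (-0.41, adjusted p = 0.283). Derl3 stood at 39.1, 38.6 and 27.7 CPM against 50.5, 64.6 and 51.4 CPM (-0.72, adjusted p = 0.259), Calr at -0.18 (adjusted p = 0.735) and Sec61b at -0.35 (adjusted p = 0.297). Pdia4 came closest to the threshold, with 208.6, 112.6 and 171.1 CPM against 251.9, 240.4 and 273.3 CPM (-0.61, adjusted p = 0.0671) and no overlap. The median of the 40 was -0.32, and without the plasma-cell-like clusters 0.03, with 3 genes at an unadjusted p under 0.05. In the plasma cells themselves the genotypes were not testable, since the Dock8 cpm/cpm mice held 1, 5 and 6 of them. With a looser hashtag rule, a highest hashtag at least 3-fold over the next, 2 of these mice held 17 and 56 plasma cells. Then 0 of the 40 were called by edgeR (1 at an unadjusted p under 0.05, median 0.04). Of the 9374 genes tested, 0.0533% were called higher and 0.0107% lower. The Dock8 wt/wt mice held 396, 749 and 492 plasma cells under this rule, against 323, 558 and 388 with HTODemux. Most of the 17 and 56 cells were thus not assigned to those 2 cpm/cpm mice by HTODemux. Whether they belong to these mice was not tested.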

How the data were processed

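Single-cell 3′ libraries (10X Genomics) of 2 sorted fractions from 6 mice were analysed. The authors deposited UMI counts per gene and barcode, without normalization, and hashtag counts per barcode. The submitters' processing notes name Cell Ranger 5.0.1, Seurat 4.0 and the mm10 build (GRCm38). A deposited table ties the 6 hashtags to mice. No column of values was left unused (0).

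Hashtag counts were assigned by HTODemux (Seurat 5.3.0, R 4.3.3, quantile 0.99), which also removed barcodes called as doublets between mice. Doublets within a mouse were not called, and the 6% of cells with most UMIs were left out as an alternative. Cells of 1 hashtag entered when fewer than 10% of their UMIs were mitochondrial and they had more than 100 and fewer than 5500 genes. This left far fewer CD45.2+ cells (6488) than the study states, but not fewer CD45.1+ cells (3204). The Dock8 cpm/cpm mice held 57, 44 and 101 of the CD45.2+ cells, and such counts depend on the hashtag rule. Cells with 2 or more UMIs of T cell receptor genes were set apart, a rule made after the design was written. Clusters of the cells under the Jchain threshold (15, from 2000 variable genes, 30 components and resolution 0.9) were named from fixed markers.

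Counts summed per mouse and class (at least 10 cells) went into edgeR 4.0.16 (limma 3.58.1) for its quasi-likelihood test, after TMM scaling and filterByExpr, with Benjamini-Hochberg adjustment over all genes at 0.05. Mouse, or mouse and sort, was a block wherever classes came from the same animals, which is where the pairing comes from. Deviations of same-mouse samples correlated at 0.118 to 0.326 (plasma against other B cells) and 0.0489 to 0.299 (plasma cells of both sorts). DESeq2 1.42.0 was an alternative. The tests were tested on simulated data, where 2-fold changes were recovered for 80% of 50 changed genes in plasma against other B cells (10622 genes), 92% for cycling plasma cells (3625 genes), 76% for the sorts of plasma cells (8465 genes) and 48% for Dock8 genotype (10301 genes). For cycling plasma cells recovery fell to 82% at 4-fold and 72% at 8-fold, while it rose in the other comparisons. The simulated counts held no mouse or sort effect, so they do not measure recovery with such effects.

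The 40 genes, the lists and the tests were chosen with earlier results of these data known. Named genes are, for plasma against other B cells and for cycling plasma cells, the 3 largest changes and the smallest in each role, and elsewhere every called gene or the 8 largest, with Hspa5, Hsp90b1, Derl3, Calr and Sec61b. One gene of the B cell marker list is not reported here, and the B cell sums and thresholds were remade without it after their values were seen. Genes named for their state levels, promoter matches or both scalings were chosen after their values were seen. Python 3.11.15, pandas 2.3.3, numpy 2.4.6, scipy 1.17.1 and matplotlib 3.10.9 were used.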

Additional observations from a re-analysis of the deposited data

Results flagged for a closer look

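In the other B cells of the CD45.1+ sort, Selenom and Canx each had 1 outlying mouse of 6, not the same mouse for both. Selenom was at 16.2 CPM in mouse 3 of the Dock8 wt/wt group, where the next highest mouse had 5.87 CPM. Canx was at 99.7 CPM in mouse 2 of the Dock8 cpm/cpm group, where the next lowest had 109.4 CPM. Of 50 groups of values tested against Dixon's critical value for 6 samples, 2 passed, and chance passes about 1 in 20 groups.

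The effect of cycling differed between plasma cells and other B cells, by the interaction test of edgeR, for 27 of the 40 genes, where 10.2% of all genes tested were called lower. The 10 called genes given here were named for being the largest differences or as genes fixed by name, and the fixed genes Hsp90b1 (-0.59) and Calr (-0.25) were not called. The difference on the log2 scale was -1.22 for Fkbp2, -1.20 for Creld2, -1.14 for Sdf2l1, -0.96 for Derl3, -0.85 for Manf, -0.84 for Txndc11, -0.84 for Edem1, -0.77 for Spcs3, -0.68 for Hspa5 and -0.35 for Sec61b. With the cycling class set at 2000 UMIs a cell the difference passed the threshold for Fkbp2 and Txndc11 only.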

How the results depend on the processing

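Plasma cells against other B cells gave 40 genes called higher in both sorts under every alternative run. Genes lower in cycling plasma cells, 24 as reported, numbered 6 without TMM, 10 without the 6% of cells with most UMIs and 14 in the CD45.2+ library alone. Genes higher in cycling other B cells (22) numbered 12 with the cycling class set at 2000 UMIs and 14 without the plasma-cell-like clusters. The interaction (27 lower) gave 17 without TMM, 9 without the 6% of cells with most UMIs and 15 at a Jchain threshold of 50. It gave 2 with the cycling class set at 2000 UMIs and 12 without the plasma-cell-like clusters. Between the sorts, plasma cells (30 lower) gave 23 in cells low in B cell mRNA and 15 in those with no UMI of the 3 B cell genes. Other B cells (17 lower) gave 10 with DESeq2, 1 without the 6% of cells with most UMIs, 2 at a Jchain threshold of 50, 29 at 200, 0 without the plasma-cell-like clusters and 3 with 0 cycling UMIs. For Dock8 genotype (0 called), DESeq2 gave 4, no count filter 9 and a Jchain threshold of 200 gave 13. How many of all genes tested were called also changed between these settings. The causes were not tested. Settings with 1 library, 1 cycling class, plasma-cell-like clusters or B cell mRNA were chosen after seeing the data.

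The fit without the replicate block gave 40 and 40 for plasma against other B cells, 10 lower for cycling plasma cells, 20 higher for cycling other B cells, 18 lower for the interaction, and 27 and 9 lower for the sorts of plasma cells and other B cells. Leaving out each mouse in turn gave 40 to 40 in both sorts for plasma against other B cells, 17 to 24 for cycling plasma cells, 21 to 23 for cycling other B cells, 15 to 24 for the interaction, 26 to 29 for the sorts of plasma cells, 4 to 18 for those of other B cells (4 without mouse 1 and 11 without mouse 2 of the Dock8 wt/wt group) and 0 to 1 for genotype.

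The summed level of the 40 genes in CD45.2+ Dock8 wt/wt cells was also taken with immunoglobulin genes left out of the totals. Plasma cells with 0, 1 and 2 or more cycling UMIs then held 52340, 50790 and 47950 CPM. With immunoglobulin genes kept, they held 30470, 29810 and 31690 CPM. CD45.1+ plasma cells with 0 and with 2 or more held 38430 and 41250 CPM with immunoglobulin genes, and 67690 and 61010 CPM without. So the order by cycling depended on the total used. Without immunoglobulin genes, the CD45.2+ Dock8 wt/wt cells of the larger plasma-cell-like cluster held 36450 CPM. The values were 4462 in EarlyGC1-like, 4307 in Activated/Memory-like and 5416 in dark zone histone-like cells. They were 4657 in EarlyGC2-like, 5375 in dark zone S-like and 4727 in unsignalled light zone-like cells.

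Of 2164 values of single genes under the alternatives, 1922 kept direction and call, 150 lost their call, 19 gained one, 50 moved and 23 reversed. In cycling plasma cells without TMM these were Hspa5 (0.019), Pdia6 (0.30), Calr (0.26), Ssr3 (0.29), Sec11c (0.027), Spcs3 (0.075), Spcs2 (0.13) and Spcs1 (0.30). In cycling other B cells they were Hsp90b1 (-0.021 without the cells with most UMIs, -0.12 without the plasma-cell-like clusters), Derl3 and Calr. Calr stood at -0.011 without those clusters. With the cycling class set at 2000 UMIs, Derl3 stood at -0.34 and Calr at -0.045. Between the sorts of other B cells they were, without the cells with most UMIs, Hsp90b1 (0.29), Manf (0.043) and Creld2 (0.54), at a Jchain threshold of 50 Hsp90b1 (0.054) and Creld2 (0.15), without those clusters Hsp90b1 (0.19), Manf (0.0066) and Creld2 (0.37), and with 0 cycling UMIs Hsp90b1 (0.19) and Creld2 (0.50).

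The Dock8 comparison rests on 38 to 89 other B cells per Dock8 cpm/cpm mouse, and in cycling plasma cells the smallest sum held 10 cells. The Jchain threshold divides a continuous range, with 524 cells between 50 and 200.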

Other observations

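Beside the 40 genes, 66 further genes of the secretory pathway were listed by role: stress sensors and factors, the oligosaccharyltransferase, targeting factors, other folding and degradation genes, and carriers from the ER to the Golgi. In CD45.2+ Dock8 wt/wt plasma cells 62 of the 64 tested were higher than in other B cells and 0 lower, with a median log2 change of 1.84, by edgeR's quasi-likelihood test at an adjusted p under 0.05. All 10 genes of the oligosaccharyltransferase, which adds sugar chains to proteins entering the ER, rose, from Stt3b (0.30) to Ddost (3.14). Creb3l2, a transcription factor cut free from the ER membrane, rose by 4.31, and Sec24d, a coat protein of vesicles leaving the ER, by 4.17. Mbtps2, the protease that releases such factors, stood at -0.04 and was not called. In the CD45.1+ cells 61 of 64 were higher and 1 lower, Mbtps2 (-0.88, adjusted p = 0.0138), and Stt3b (-0.11, adjusted p = 0.438) was not called. Without TMM 49 of 64 were higher and 5 lower in CD45.2+ cells, where 1198 and 7465 of the 10622 genes tested were. In CD45.1+ cells 49 were higher and 4 lower, where 928 and 5902 of the 8098 genes tested were.

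In cycling plasma cells 14 of 60 were lower and 1 higher than in plasma cells without cycling UMIs, where 14.3% and 14.5% of all genes tested were. Without TMM 3 were lower and 21 higher, where 121 and 1526 of the 3625 genes tested were. Ddit3, a stress-induced transcription factor, changed by -0.79, Ero1lb, which oxidizes disulfide isomerases, by -0.69, and Os9, a lectin of ER-associated degradation, by -0.53, while Srp19, a part of the signal recognition particle, stood at 0.27. None of the 11 tested carriers from the ER to the Golgi was called (0 in either direction). In CD45.2+ plasma cells 33 of 64 were lower than in CD45.1+ cells and 1 higher, where 10.8% and 11.2% of all genes were, Ddost by -0.99 and the cargo receptor Lman1 by -0.93 among them. In CD45.2+ other B cells, 2 of 64 were lower in Dock8 cpm/cpm than in Dock8 wt/wt mice. Xbp1, the transcription factor of the unfolded protein response, stood at 138.2, 122.2 and 137.2 CPM against 188.6, 210.4 and 230.5 CPM (-0.65, adjusted p = 0.0258). Mzb1, a partner of Hsp90b1 in antibody assembly, stood at 834.5, 765.5 and 920.1 CPM against 1201, 1217 and 1274 CPM (-0.54, adjusted p = 0.00321). Neither overlapped between the genotypes. Both belong to the fixed plasma cell markers, and without the plasma-cell-like clusters neither was called, with Xbp1 at 0.06 (adjusted p = 0.954) and Mzb1 at -0.20 (adjusted p = 0.536).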
